A study of Mus musculus with 6 samples.

Results

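The 43 human genes described here act in G2 phase and mitosis, the stages in which a cell that has copied its DNA condenses its chromosomes, pulls them apart on a spindle and divides. They were chosen by name from a list of 45 such genes, and each was found by its Ensembl identifier among the 15234 loci listed for 6 tumours. BUB1B and GTSE1 had no locus under their identifiers and were not analysed here. The tumours were A375 xenografts, grown under the skin in nude mice of the BALB/c strain from an established line of human melanoma cells labelled wild type. In 3 of them the host had received ZLD1039 at 100 mg/kg by mouth once a day, and in the other 3 the host had received vehicle, with all 6 labelled day 27. ZLD1039 inhibits EZH2, the enzyme of the Polycomb repressive complex that methylates histone H3. All 6 tumours share the cell line and the host strain, nude mice lack mature T cells, and no label says in so many words that 1 mouse gave 1 tumour, so the tests measure the spread between these tumours.

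Entry into mitosis is driven by cyclin B bound to the kinase CDK1, which CDC25 phosphatases switch on. The checkpoint proteins then hold the cell until every chromosome is attached to the spindle, and CDC20 and UBE2C lead the anaphase-promoting complex to destroy cyclin B and securin. Most of these genes are transcribed together in G2 under FOXM1 and its partners and fall silent after division, so their summed RNA is widely used as a measure of proliferation, in melanoma as in other tumours.

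Values are FPKM, fragment numbers scaled by transcript length and by library size, and may be compared between genes. A locus value is the largest of 3 quantities, its summed start sites, its summed end sites and its largest single event, each a lower bound of its abundance. The depth is unknown, since the lists hold no fragment counts. Chromosome numbers reach 22, as in the human genome, while the submitters' notes name the mouse build mm10, so the values describe RNA placed on the human genome. No human gene table was at hand, so the marker genes of melanoma and of other cell types, and a list of 59 other mitotic genes, could not be found by symbol. ZLD1039 tumour 2 stood apart from the rest, with a mean correlation of 0.919 with the other tumours over 10834 loci, against 0.934 to 0.943 for the others.

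No mitotic gene passed the test for a difference between the treatments once p-values were adjusted over all loci. Of the 43 genes, 35 had a higher and 8 a lower mean of log2(FPKM + 1) under ZLD1039, with a median log2 difference of 0.18, and none passed limma's test after Benjamini-Hochberg adjustment over all loci (adjusted p from 0.881 to 0.999). Over all 10834 loci tested 52.8% lay above 0, the median was 0.02 and 2 loci (0.0185%) passed. The loci in the same range of mean abundance, 8338 in number, had a median of 0.03, with 54.9% above 0. The genes were chosen with earlier results of these data known, so these counts are a description without a test of the list. The median 95% interval of a mitotic gene reached 0.50 on the log2 scale to either side of its estimate, more than the difference itself at most of the genes.

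**Figure D1:**
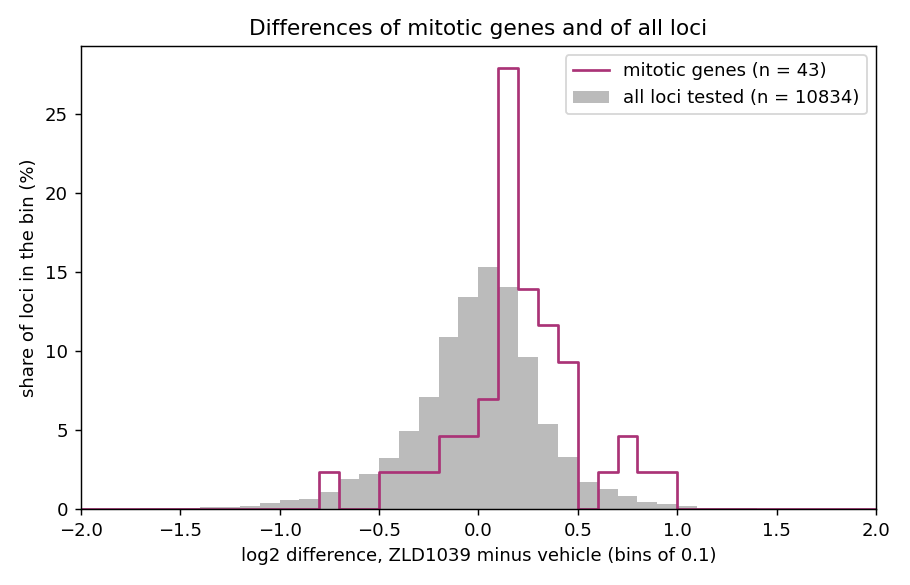
Share of loci (%) in bins of 0.1 of the log2 difference, ZLD1039 minus vehicle, on the log2(FPKM + 1) scale, for the 43 mitotic genes (line) and for all 10834 loci tested (grey bars). The mitotic genes have their median at 0.18 and all loci at 0.02, and the axis is limited to the range from -2 to 2.

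Unadjusted, 7 of the 43 genes had a limma p under 0.05, 6 of them higher and 1 lower under ZLD1039, where 4.94% of all loci had such a p, 2.27% higher and 2.67% lower. By locus value the groups did not overlap at 8 genes, CDK1, CCNB2, SMC4, KIF23, KIF11, NUSAP1 and TPX2 with higher and UBE2C with lower values under ZLD1039. Groups without overlap were found at 10.9% of all loci, 5.75% higher and 5.2% lower. Leaving out 1 tumour in turn left 2 to 10 genes with a p under 0.05: 2 without vehicle tumour 2 or ZLD1039 tumour 2, 3 without ZLD1039 tumour 3, 4 without vehicle tumour 1 and 5 without vehicle tumour 3, but 10 without ZLD1039 tumour 1. None passed after adjustment in any of these fits (limma, lowest adjusted p = 0.447).

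**Figure D2:**
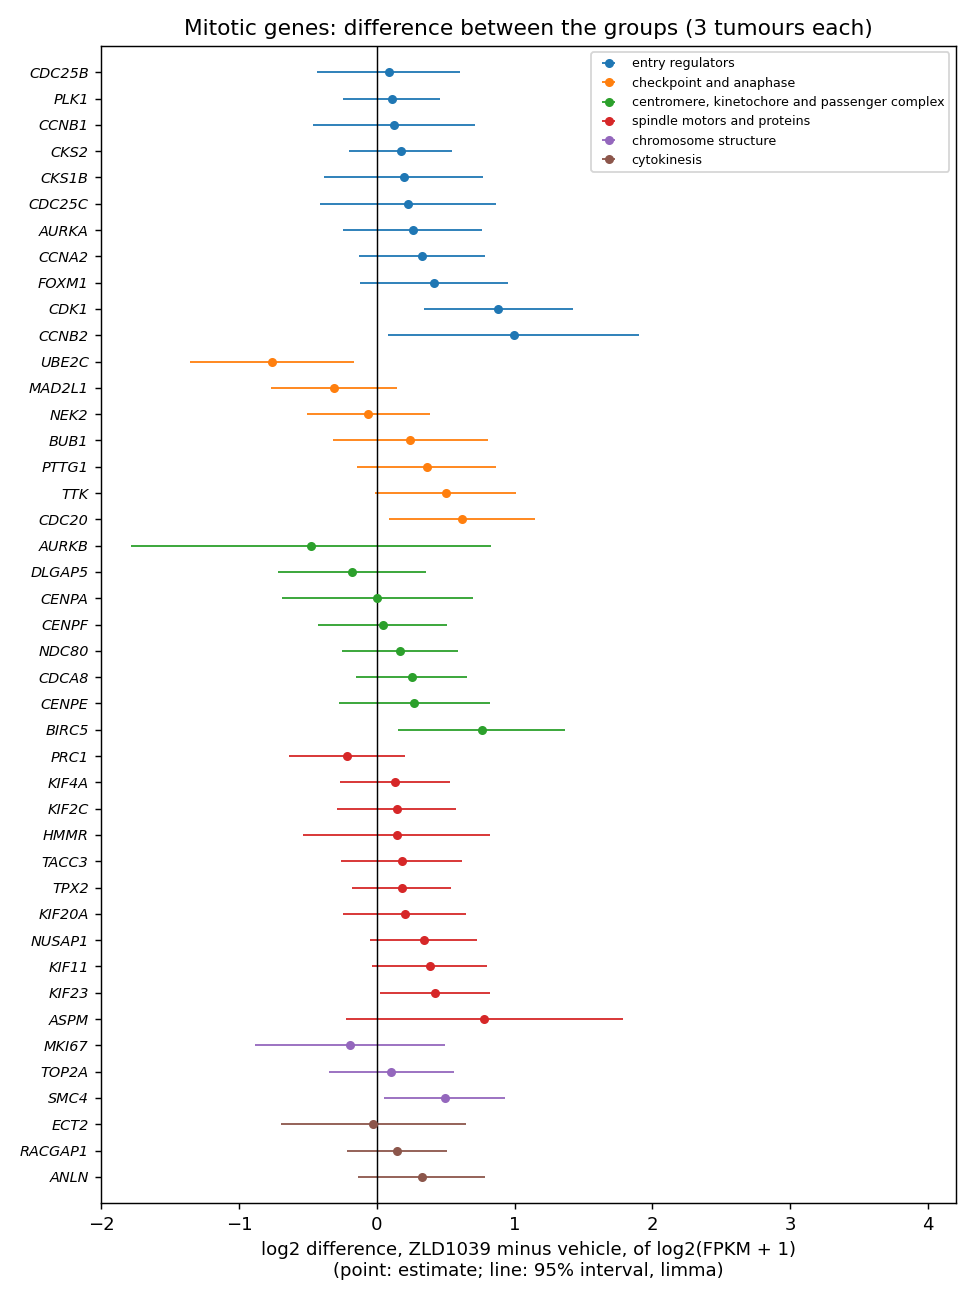
Log2 difference, ZLD1039 minus vehicle, of log2(FPKM + 1) for each of the 43 genes, coloured by role and ordered by size within each role; points are estimates and lines are limma's 95% intervals, 3 tumours per group. The estimates run from -0.76 for UBE2C to 0.99 for CCNB2, and the lines of 7 genes do not cross 0.

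The higher values lay mostly in ZLD1039 tumours 2 and 3, and less in tumour 1. In ZLD1039 tumours 2 and 3 the median deviation of the mitotic genes from their own mean over the 6 tumours was 0.26 and 0.23 on the log2 scale. In ZLD1039 tumour 1 it was -0.11, next to -0.10, -0.11 and -0.09 in vehicle tumours 1, 2 and 3. The groups thus overlapped, with the lowest of all 6 medians in a ZLD1039 tumour. Across all loci the same medians lay between -0.02 and 0.04.

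The highest of the 6 values fell in ZLD1039 tumour 2 for 20 of the 43 genes and in ZLD1039 tumour 3 for 14, together 79.1%, where 48.6% of all loci had their highest value in 1 of these 2 tumours. No gene had its highest value in ZLD1039 tumour 1, where 12 genes had their lowest, against 11, 9 and 10 genes in the vehicle tumours. The summed FPKM of the 43 genes was 906, 963 and 965 in the vehicle tumours and 945, 1266 and 1107 in the ZLD1039 tumours. As a share of the summed FPKM of all loci this was 0.402, 0.404 and 0.387% under vehicle and 0.391, 0.470 and 0.472% under ZLD1039. In a bulk sample, more cells in mitosis and more of these RNAs per cell cannot be told apart.

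Of the 43 log2 differences, 34 moved by over 1.5 times or turned sign when some 1 tumour was left out. This count was 16, 12 and 18 without vehicle tumours 1, 2 and 3. It was 19, 18 and 20 without ZLD1039 tumours 1, 2 and 3. In all, 10 genes turned sign. Without ZLD1039 tumour 2, 33 genes lay above 0 and 10 below, with a median log2 difference of 0.12. Without ZLD1039 tumour 1 the median was 0.32, and 36 genes lay above 0. Within groups the genes varied more under ZLD1039: the median SD of log2(FPKM + 1) was 0.17 among vehicle and 0.30 among ZLD1039 tumours, while over all loci it was 0.21 and 0.28.

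**Figure D3:**
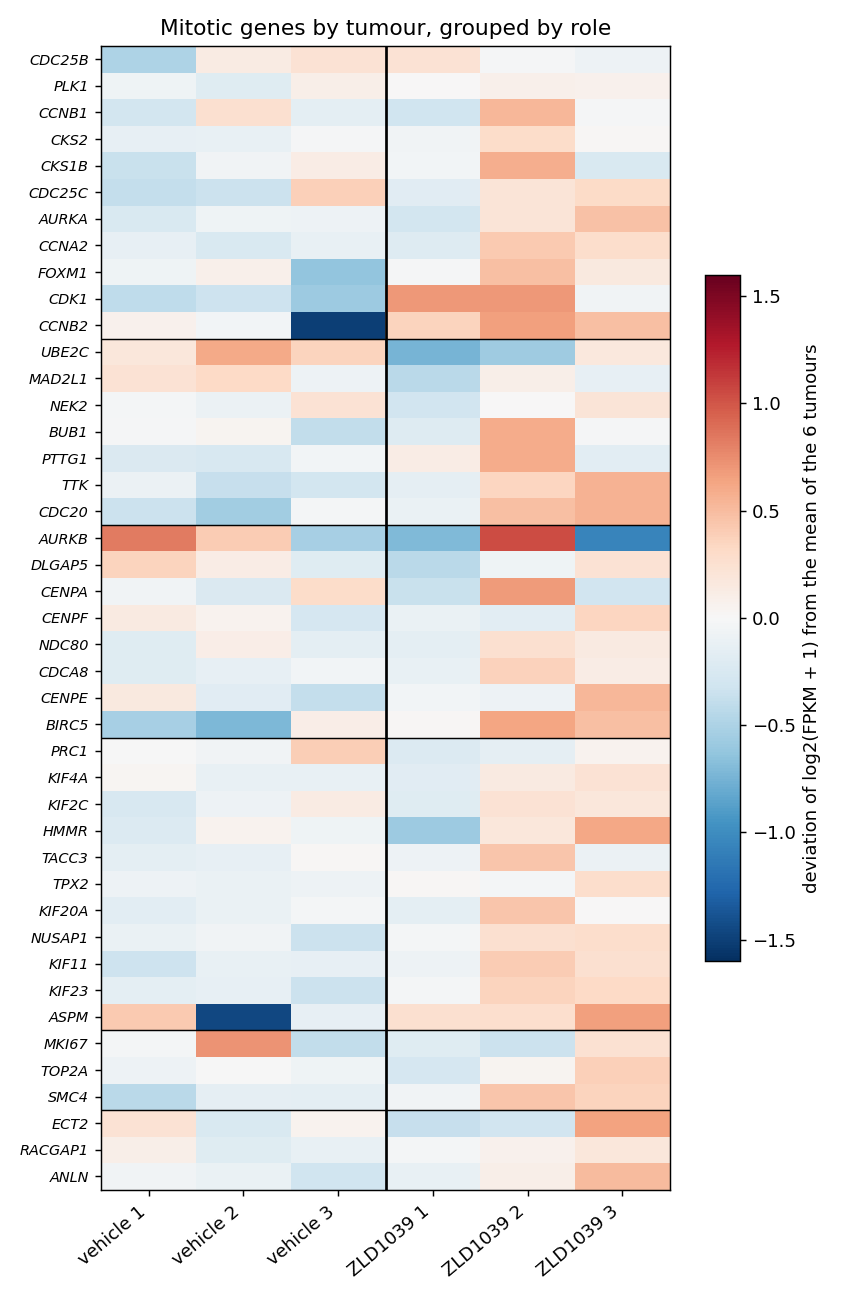
Deviation of log2(FPKM + 1) from the mean of the 6 tumours for each of the 43 genes (rows, grouped by role, horizontal lines between roles) in each tumour (columns, vertical line between the groups). ZLD1039 tumours 2 and 3 hold the highest value of 34 genes, and ZLD1039 tumour 1 that of none.

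Among the 11 regulators of mitotic entry, all had a higher mean under ZLD1039, with log2 differences from 0.08 to 0.99, although CCNB1, CKS1B and CDC25B turned sign when 1 tumour was left out. CDK1 (ENSG00000170312, chromosome 10, 62538089 to 62554610, plus strand), the kinase that starts mitosis, measured 11.6, 12.3 and 10.2 FPKM in the vehicle tumours and 25.9, 26.0 and 15.1 FPKM in the ZLD1039 tumours. All 3 ZLD1039 tumours lay above all vehicle tumours, with tumours 1 and 2 well above tumour 3. The means were 11.3 ± 1.06 and 22.3 ± 6.30 FPKM (SD, n = 3), or 0.88 higher on the log2 scale (standard error 0.23, 95% interval 0.34 to 1.42), which did not pass adjustment over all loci (limma, adjusted p = 0.881).

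CCNB2 (ENSG00000157456, chromosome 15, 59397277 to 59417244, plus strand), a cyclin B that binds CDK1, stood at 23.4, 21.4 and 7.16 FPKM under vehicle and at 28.6, 35.7 and 31.4 FPKM under ZLD1039. Vehicle tumour 3 was far below the other 5, and the groups did not overlap by this value, which was the largest event. Its start and its end site each gave 22.0, 19.8 and 6.83 FPKM under vehicle. Under ZLD1039 each gave 21.8, 35.5 and 29.9 FPKM, so by these the groups overlapped. The log2 difference of the locus value, 0.99 (standard error 0.39, limma adjusted p = 0.881), became 0.49 without vehicle tumour 3. CCNB1, the main mitotic cyclin, measured 28.4, 42.1 and 31.4 FPKM under vehicle and 27.9, 51.0 and 34.5 FPKM under ZLD1039, with full overlap of the groups. Its log2 difference of 0.13 became -0.11 without ZLD1039 tumour 2. CCNA2, the cyclin of S and G2 phase, lay at 18.1, 16.6 and 18.3 FPKM under vehicle and 17.0, 27.0 and 24.4 FPKM under ZLD1039, where tumours 2 and 3 stood above all others and tumour 1 within the vehicle range. The log2 difference of CCNA2 was 0.33, and 0.20 without ZLD1039 tumour 2.

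FOXM1 (ENSG00000111206, chromosome 12, 2966847 to 2986206, minus strand), the transcription factor of the G2 programme, measured 22.5, 25.2 and 15.0 FPKM under vehicle and 23.5, 33.5 and 26.5 FPKM under ZLD1039. Only vehicle tumour 3 and ZLD1039 tumour 2 lay apart from the others, and the log2 difference was 0.41 (standard error 0.23). It was 0.20 without vehicle tumour 3, 0.275 without ZLD1039 tumour 2 and 0.17 with summed start sites as the locus value. PLK1, the kinase that drives CDC25 activation and spindle assembly, varied little between tumours, at 28.4, 25.9 and 31.8 FPKM and at 29.9, 31.6 and 31.1 FPKM. The locus that carries its identifier also held 2 start sites 36.3 kb upstream of the others, with 4.67 to 8.16 FPKM in sum. The files do not say whether these belong to PLK1. From the nearer starts alone PLK1 measured 22.1, 17.7 and 24.6 FPKM under vehicle and 24.1, 26.9 and 26.2 FPKM under ZLD1039, a log2 difference of 0.26 in place of 0.11.

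AURKA, the centrosomal kinase that activates PLK1, measured 15.8, 17.9 and 17.9 FPKM under vehicle and 15.2, 22.0 and 26.6 FPKM under ZLD1039. ZLD1039 tumour 1 was the lowest of all 6 and tumours 2 and 3 the highest, and the log2 difference of 0.26 was 0.09 without ZLD1039 tumour 3. The CDK-binding subunits CKS1B and CKS2 were the most abundant genes of the set, with means over all tumours of 120.0 and 92.5 FPKM. CKS1B stood at 91.3, 112.5 and 127.7 FPKM under vehicle and 113.6, 176.1 and 98.6 FPKM under ZLD1039, and its log2 difference of 0.19 rested on ZLD1039 tumour 2, without which it was -0.05. The phosphatases that activate CDK1 lay far apart in level, with CDC25B at a mean of 36.9 FPKM and CDC25C at 2.80 FPKM, the lowest of the 43. Their log2 differences were 0.08 and 0.23, within overlapping groups. That of CDC25B was -0.14 without vehicle tumour 1, and that of CDC25C 0.09.

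**Figure D4:**
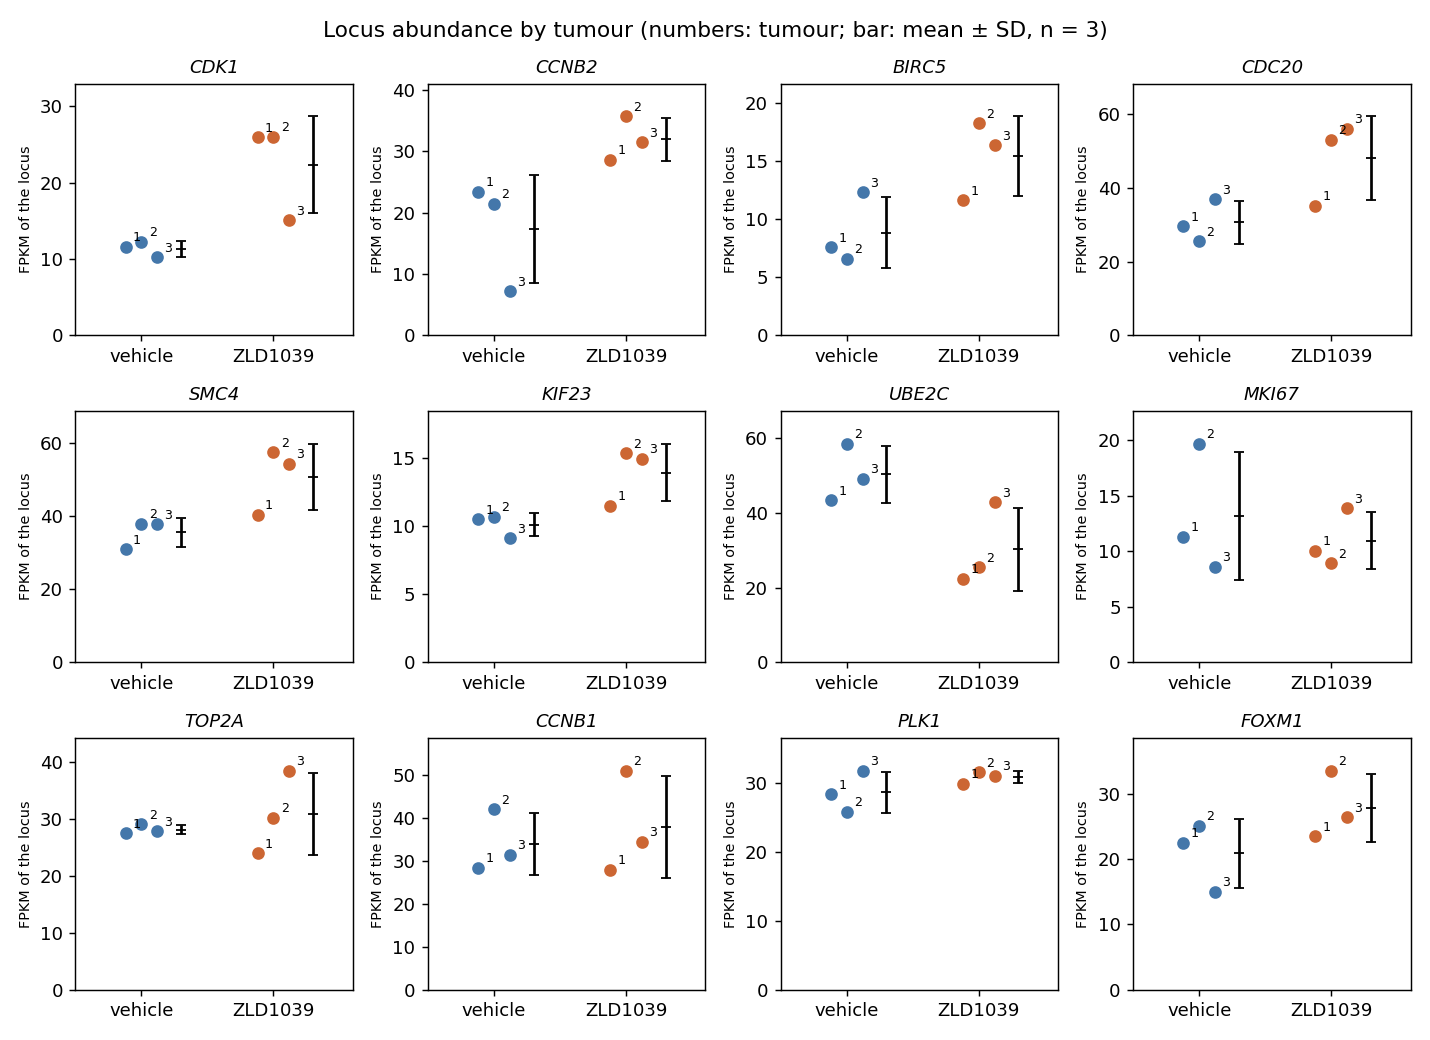
FPKM of 12 loci in each tumour (points, numbered by tumour, axes from 0), with mean ± SD of 3 tumours per group beside them. By locus value, CDK1, CCNB2, SMC4 and KIF23 have all ZLD1039 tumours above all vehicle tumours. UBE2C has them all below, and the groups of the other 7 genes overlap.

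The 7 genes of the spindle checkpoint and of anaphase were split, with 4 higher and 3 lower means under ZLD1039. UBE2C (ENSG00000175063, chromosome 20, 44441215 to 44445596, plus strand), the ubiquitin-conjugating enzyme of the anaphase-promoting complex, measured 43.3, 58.5 and 49.2 FPKM under vehicle and 22.4, 25.4 and 42.8 FPKM under ZLD1039. It was the only one of the 43 with all ZLD1039 tumours below all vehicle tumours, by a margin of less than 1 FPKM between ZLD1039 tumour 3 and vehicle tumour 1. Its means of 50.3 ± 7.64 and 30.2 ± 11.02 FPKM (SD, n = 3) differed by -0.76 on the log2 scale (standard error 0.26, 95% interval -1.36 to -0.17, limma adjusted p = 0.881).

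CDC20, which carries substrates to the same complex, lay in the other direction, at 29.7, 25.5 and 36.9 FPKM under vehicle and 35.1, 53.1 and 56.0 FPKM under ZLD1039. ZLD1039 tumour 1 fell within the vehicle range, and the log2 difference was 0.62 (standard error 0.23). PTTG1, the securin that guards sister chromatids until anaphase, stood at 62.3, 61.0 and 70.9 FPKM and at 79.5, 111.4 and 65.1 FPKM, with ZLD1039 tumour 3 inside the vehicle range. Its log2 difference of 0.36 was 0.15 without ZLD1039 tumour 2.

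TTK, the kinase that starts checkpoint signalling, measured 4.31, 3.42 and 3.66 FPKM under vehicle and 4.15, 6.19 and 7.32 FPKM under ZLD1039, so that again tumours 2 and 3 were the highest. BUB1, a checkpoint kinase of the kinetochore, reached 13.3 FPKM in ZLD1039 tumour 2 and lay between 6.25 and 8.83 FPKM in the other 5, and without that tumour its log2 difference of 0.24 was 0.01. MAD2L1, the subunit that blocks CDC20, was lower, at 17.0, 18.1 and 13.4 FPKM under vehicle and 10.4, 15.3 and 13.0 FPKM under ZLD1039, a log2 difference of -0.31 (standard error 0.20) that was -0.18 without ZLD1039 tumour 1, with groups that overlapped. NEK2, a kinase that separates the centrosomes, had a log2 difference of -0.06.

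Of the 8 genes of the centromere, the kinetochore and the chromosomal passenger complex, 6 had higher and 2 lower means under ZLD1039. BIRC5 (ENSG00000089685, chromosome 17, 76210267 to 76219073, plus strand), or survivin, which recruits the passenger complex to the centromere, measured 7.62, 6.59 and 12.4 FPKM under vehicle and 11.6, 18.3 and 16.4 FPKM under ZLD1039. Vehicle tumour 3 lay above ZLD1039 tumour 1, so the groups overlapped at their edges. The log2 difference was 0.76 (standard error 0.26, 95% interval 0.15 to 1.36, limma adjusted p = 0.881).

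AURKB, the kinase of the same complex, had the widest standard error of the 43, with values of 16.6, 12.2 and 5.89 FPKM under vehicle and 5.06, 19.5 and 3.79 FPKM under ZLD1039. Its value came from summed end sites in 5 tumours and from summed start sites in ZLD1039 tumour 2, and its log2 difference was -0.48 (standard error 0.56). Left-out tumours moved it widely, to -1.12 without ZLD1039 tumour 2 and to -0.07 without ZLD1039 tumour 3. CDCA8, or borealin, the third member of that complex described here, lay at 10.6, 11.04 and 11.8 FPKM under vehicle and 11.2, 16.1 and 13.4 FPKM under ZLD1039. All 3 passenger genes had their highest value in ZLD1039 tumour 2, while in ZLD1039 tumour 3 AURKB was at its lowest and BIRC5 and CDCA8 were second highest.

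CENPA, the histone that marks centromeres, had a log2 difference of 0.004. Its locus held 2 start sites 21.7 kb upstream of the other, which the files do not assign. From the nearer start alone it measured 7.06, 5.27 and 10.0 FPKM under vehicle and 5.14, 8.97 and 5.02 FPKM under ZLD1039, a log2 difference of -0.20 (standard error 0.28). CENPF and CENPE, large kinetochore proteins, had log2 differences of 0.04 and 0.27, NDC80, which binds microtubules at the kinetochore, 0.16, and DLGAP5, a kinetochore fibre protein, -0.18, all with overlapping groups. Without ZLD1039 tumour 3 CENPE stood at 0.07 and CENPF at -0.12, and without ZLD1039 tumour 1 DLGAP5 stood at -0.01.

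The 11 spindle genes held 10 with higher and 1 with lower means under ZLD1039, and 4 of the 7 genes that lay above all vehicle tumours in every ZLD1039 tumour. KIF23 (ENSG00000137807, chromosome 15, 69706585 to 69740764, plus strand), a motor of the central spindle, measured 10.5, 10.7 and 9.11 FPKM under vehicle and 11.5, 15.3 and 14.9 FPKM under ZLD1039, a log2 difference of 0.42 (standard error 0.17). KIF11, the motor that pushes spindle poles apart, stood at 11.2, 13.2 and 13.0 FPKM and at 13.5, 19.3 and 17.3 FPKM. The main start of KIF11, at 94353043, gave 11.2, 8.45 and 8.20 FPKM under vehicle. Under ZLD1039 it gave 10.7, 18.8 and 17.3 FPKM, so by this start the groups overlapped. Its start at 94333027 was listed in ZLD1039 tumour 1 only (2.83 FPKM), and that at 94365051 in vehicle tumour 3 only (4.84 FPKM). NUSAP1, which bundles spindle microtubules, lay at 21.1, 22.0 and 17.7 FPKM and at 22.4, 27.4 and 28.0 FPKM. By the main start of NUSAP1 at 41624892 (18.0, 20.7 and 15.5 FPKM, then 19.3, 23.1 and 25.9 FPKM) the groups overlapped. They overlapped by its transcript end too.

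TPX2, which activates AURKA on the spindle, was the steadiest gene among vehicle tumours, at 29.5, 29.0 and 29.5 FPKM, and measured 31.6, 30.7 and 38.4 FPKM under ZLD1039. In KIF23, KIF11 and NUSAP1 ZLD1039 tumour 1 lay within 1 FPKM of the highest vehicle tumour, and the separation of the groups rested on that margin. The other higher members were ASPM, a spindle pole protein (log2 difference 0.78, standard error 0.44), KIF20A (0.20), TACC3 (0.18), HMMR (0.14), KIF2C (0.14) and KIF4A (0.13). Without ZLD1039 tumour 2 KIF20A stood at 0.03 and TACC3 at 0.005, and without ZLD1039 tumour 3 HMMR stood at -0.13. ASPM ranged from 2.24 to 10.9 FPKM among the vehicle tumours alone, and without vehicle tumour 2 its log2 difference was 0.24. PRC1, which cross-links the central spindle, was lower, with a log2 difference of -0.21 (standard error 0.18) that was -0.07 without vehicle tumour 3.

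The common proliferation marker MKI67 and the topoisomerase TOP2A did not separate the groups. MKI67 (ENSG00000148773, chromosome 10, 129899522 to 129924649, minus strand), which coats mitotic chromosomes, measured 11.3, 19.7 and 8.63 FPKM under vehicle and 10.1, 8.96 and 13.9 FPKM under ZLD1039. Vehicle tumour 2 was the highest of the 6, and without it the log2 difference of -0.19 became 0.11. No start site of MKI67 was listed in 3 tumours. Its value came from the largest event in vehicle tumours 2 and 3 and in ZLD1039 tumours 1 and 2. In vehicle tumour 1 and ZLD1039 tumour 3 it came from summed start sites. TOP2A, which untangles sister chromatids, lay at 27.4, 29.0 and 27.8 FPKM under vehicle and 23.9, 30.2 and 38.4 FPKM under ZLD1039, with both the lowest and the highest value in the ZLD1039 group, and its log2 difference of 0.11 was -0.06 without ZLD1039 tumour 3. SMC4 (ENSG00000113810, chromosome 3, 160117062 to 160152750, plus strand), a core subunit of condensin, measured 31.0, 38.0 and 37.9 FPKM and 40.5, 57.6 and 54.4 FPKM. Its log2 difference was 0.49 (standard error 0.19, 95% interval 0.05 to 0.93, limma adjusted p = 0.881). The groups were apart at its start at 160117062 (6.21, 10.2 and 9.92 FPKM under vehicle, 15.1, 17.5 and 15.7 FPKM under ZLD1039). They overlapped at its main start at 160117456 (23.5, 26.7 and 26.9 FPKM, then 23.7, 39.0 and 37.2 FPKM). Its transcript end (29.6, 26.7 and 26.9 FPKM, then 23.7, 39.0 and 37.2 FPKM) overlapped too. An inner exon (160119703 to 160119881) kept the groups apart.

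Among the cytokinesis genes, ANLN, which links actin and myosin in the contractile ring, measured 22.7, 21.9 and 18.9 FPKM under vehicle and 21.9, 25.3 and 34.2 FPKM under ZLD1039. RACGAP1, the partner of KIF23, had a log2 difference of 0.15, and ECT2, the exchange factor that RACGAP1 recruits, one of -0.03 that was 0.15 without ZLD1039 tumour 1. All 3 had their highest value in ZLD1039 tumour 3.

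By mean level over the 6 tumours the order began with CKS1B, CKS2, PTTG1 (75.0 FPKM), SMC4 (43.2) and UBE2C (40.3), and ended with NEK2 (8.14), DLGAP5 (6.07), CENPE (5.34), TTK (4.84) and CDC25C. The ranges over tumours of neighbours in the order of all 43 genes overlapped, as for CKS1B and CKS2, SMC4 and UBE2C, and CENPE and TTK, except that every value of PTTG1 lay above every value of SMC4. Within single tumours, however, CKS1B lay above CKS2 in all 6, and CENPE above TTK in all but ZLD1039 tumour 2. CDC25C lay below TTK in every tumour except vehicle tumour 3. The median of the 43 genes was 16.8 FPKM, against 8.01 FPKM over all loci tested.

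At most mitotic loci the leading start site was the same in all tumours. Of 43 loci, 33 had the same leading start in all 6 tumours. However, 12 loci had a single start, so no other could lead, and SMC4 had the most starts, 11. Among the 12, CENPE had no start listed in 3 tumours and is not counted in the 33. MKI67, with no start listed in 3 tumours, and ASPM, with none in 1 tumour, are not counted either. None of the 73 start sites tested in 27 of these loci differed in its share of the locus (limma, lowest adjusted p = 0.764, none with an unadjusted p under 0.05), and none of the 21321 tested in all loci did (0%), where 2.49% had an unadjusted p under 0.05. The groups did not overlap at 5 of the 73, against 8.07% of all sites.

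CDK1 in ZLD1039 tumour 1 drew much of its value from a start listed in no other tumour, at position 62540531, with 10.9 FPKM. Its main start at 62538089 measured 10.1, 10.7 and 9.33 FPKM under vehicle and 10.1, 22.2 and 12.9 FPKM under ZLD1039, so by this start tumour 1 lay within the vehicle range. Its transcript end, at 11.5, 12.2 and 10.1 FPKM under vehicle and 25.9, 25.9 and 15.0 FPKM under ZLD1039, kept the groups apart. AURKA had 3 starts that share their upstream boundary, and the one spanning 54966999 to 54967351 carried 16.2, 15.2 and 19.7 FPKM in vehicle tumours 2 and 3 and ZLD1039 tumour 2, and 1.42 to 1.97 FPKM in the other 3 tumours. This choice did not follow the treatment. RACGAP1 took 49.4 and 51.4% of its start abundance from 1 site (50419181 to 50419340) in ZLD1039 tumours 1 and 2, but 4.79% in tumour 3 and 9.11 to 13.7% under vehicle.

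Exon inclusion is the FPKM with an exon over the FPKM with and without it. The mitotic loci held 45 exons, runs of exons and introns that could be tested, in 24 genes, and 24 of the 45 had a length that is a multiple of 3. None passed (limma, lowest adjusted p = 0.719), as none of the 13274 in all loci did (0%). An unadjusted p under 0.05 was found for 2 of the 45, against 2.09% of all, and groups without overlap for 7, against 7.12%. Intervals (95%) of these differences were wide, with a median reach of 19.8 percentage points to either side. In the check on simulated data, described below, no planted change in inclusion was recovered after adjustment. The absence of calls thus says little about shifts, large ones included. The 2 with the lowest p were an exon of the CENPA locus between its far and nearer starts and a run of exons in BIRC5 (76212047 to 76212862). Among transcripts listed as holding or skipping the whole BIRC5 run, inclusion was 98.5, 98.8 and 97.9% under vehicle. It was 91.5, 92.4 and 93.2% under ZLD1039, on a mean of 1.29 FPKM. Transcripts that skip the first exon of the run, of 69 bases, stood at 3.60 to 15.8 FPKM and enter neither side. The included side summed 2 listed events, of 0.488 and 0.484 FPKM in vehicle tumour 1, which may be the same transcripts. Groups without overlap included 2 exons of CDC25C, the phosphatase of low level. That of 34 bases (137661710 to 137661743) was included at 17.6, 57.0 and 43.9% under vehicle. Under ZLD1039 it was included at 74.2, 64.6 and 82.8%, on a mean of 2.85 FPKM. The other, of 95 bases, had the same values in every tumour but ZLD1039 tumour 3 (95.2%), so the 2 are not separate observations.

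Several exons known to distinguish forms of mitotic proteins were recognised by their lengths. In FOXM1 an exon of 114 bases (2970465 to 2970578), the length of the exon that makes the factor inactive, was included at 0.03, 0.12 and 0.01% under vehicle and 2.33, 6.52 and 2.74% under ZLD1039. All ZLD1039 tumours lay above all vehicle tumours, but inclusion stayed below 7% in each, and the difference of 3.81 points did not pass (95% interval -1.67 to 9.29). In BIRC5 an exon of 69 bases (76212047 to 76212115), which marks a longer survivin variant, was included at 11.9, 8.32 and 5.91% under vehicle and 5.35, 7.25 and 2.36% under ZLD1039.

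In KIF23 an exon of 312 bases (69733107 to 69733418), the length of the exon that separates the long from the short form, was included at 56.2 ± 10.3% under vehicle and 56.3 ± 13.9% under ZLD1039 (SD, n = 3). The interval of that difference, from -45.9 to 45.9 points, leaves room for large shifts. In CDC25B the 123-base exon that differs between its variants ranged from 49.9 to 92.6% among vehicle and from 49.4 to 90.8% among ZLD1039 tumours. HMMR included its 48-base exon at 16.8 to 54.0% under vehicle and 32.0 to 43.8% under ZLD1039. KIF2C used a 123-base exon (45218804 to 45218926) at 16.4, 23.2 and 85.4% under vehicle and 84.8, 53.9 and 26.3% under ZLD1039, a wide range within each group.

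UBE2C transcripts that skip a run of exons (44443023 to 44444384) were listed at 14.3 and 22.1 FPKM in vehicle tumours 1 and 2 and at no more than 0.012 FPKM in the other 4 tumours. The run was included at 63.4, 61.2 and 100.0% under vehicle and above 99.9% in every ZLD1039 tumour, with vehicle tumour 3 like the ZLD1039 tumours. The transcripts that include it stood at 24.8, 34.8 and 49.1 FPKM under vehicle and 22.4, 25.4 and 42.8 FPKM under ZLD1039, so by these transcripts the groups of UBE2C overlapped. In MAD2L1 an exon of 121 bases (120983130 to 120983250) was included at 47.0, 42.8 and 74.1% under vehicle and 79.4, 79.6 and 74.0% under ZLD1039, a difference of 23.0 points (95% interval -15.8 to 61.9). CENPA included its 78-base exon (27015624 to 27015701) at 100.0, 36.1 and 28.0% and at 65.3, 74.2 and 96.8%.

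**Figure D5:**
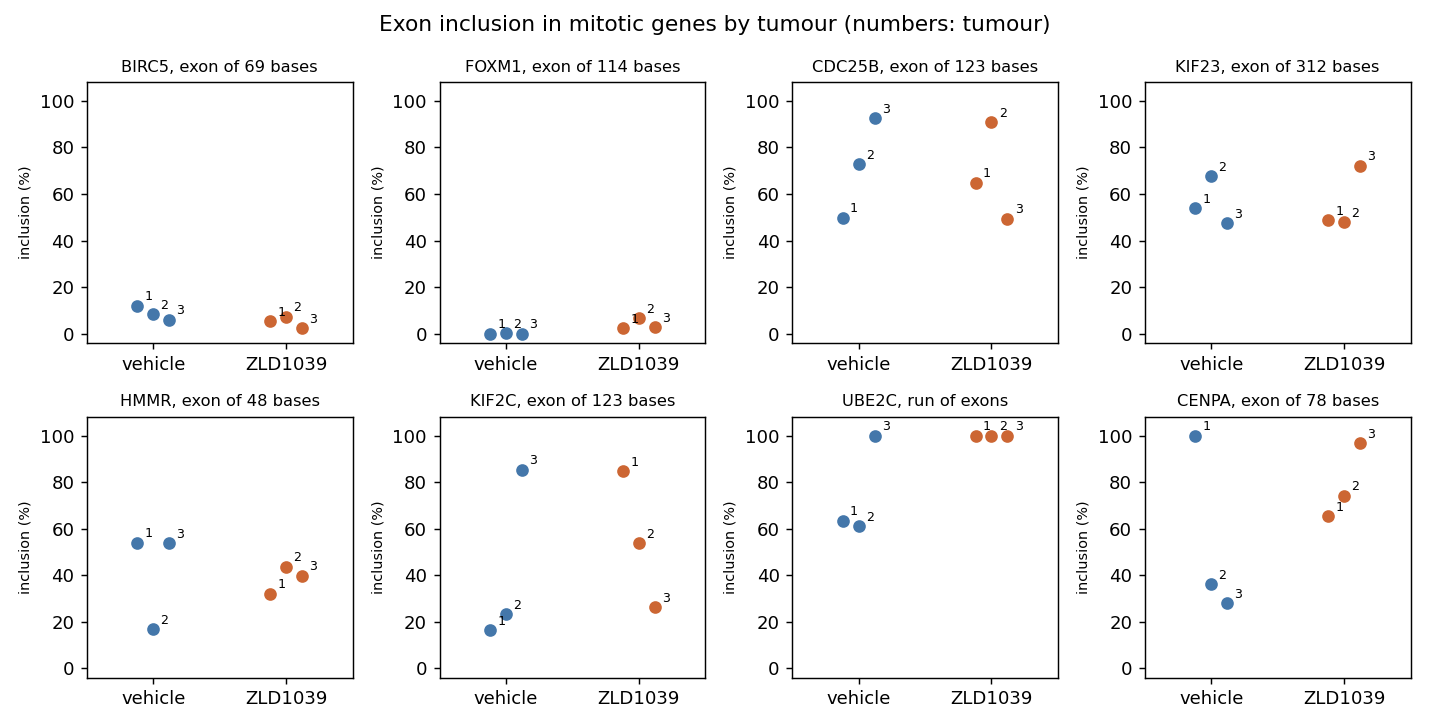
Inclusion (%) of 7 exons and of 1 run of exons in mitotic genes, by tumour (points, numbered by tumour) and group. The FOXM1 exon has all 3 ZLD1039 tumours (2.33 to 6.52%) above all vehicle tumours (at most 0.12%), and the groups of the other 7 overlap.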

How the data were processed

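For each of 6 tumours the authors deposited 1 table, whose rows are transcript events and whose value column is FPKM, per the file headers. HTSeq 0.6.1, bcl2fastq 2.17.1.14 and the mouse build mm10 are named in the submitters' processing notes. No aligner or assembler is named in the labels or headers. Positions reach 249214145 on chromosome 1, past the last mm10 gene there (195323493). By background knowledge this fits human GRCh37, and positions are printed as in the files. Events were counted once per event identifier, and an unlisted locus was given 0. The higher of 2 loci was used for MKI67.

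The test was limma 3.58.1 (R 4.3.3), run on log2(FPKM + 1) over every locus whose mean reached 1 FPKM in either group, allowing for a trend of variance with level. P-values were adjusted over all loci by the Benjamini-Hochberg method, at 0.05. On that scale a fold change of low values is understated. Shares of start sites and inclusion were tested likewise in percent, where the total averaged 1 FPKM or more, with a total above 0 in every tumour and a mean over 1% and under 99%. All results are from the tumours, and the scripts were checked beforehand on simulated data. In that check the inclusion test recovered no planted change after adjustment. A lack of called exons therefore says little about shifts of any size that was planted, large ones included. Depth is unknown, so no counting error is given.

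The genes, their roles and the tests were chosen with earlier results of these data known. The rule for named genes took those with the 6 largest differences in each direction, the 5 highest and lowest levels or groups without overlap, and 12 fixed ones. NEK2, CENPE, DLGAP5, ASPM, PRC1 and CKS2 meet it and are given more briefly. The other genes, and the starts and exons singled out fall outside that rule and were chosen after their values were seen. The promoter table at hand is for the mouse and was not used here.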

Additional observations from a re-analysis of the deposited data

How the results depend on the processing

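No mitotic gene passed in any of the fits tried, and 32 to 36 of the 43 lay above 0 with 1 tumour left out, with a median log2 difference of 0.12 to 0.32. Under the other planned settings 33 to 35 lay above 0, with a median of 0.13 to 0.19. Chosen after seeing the data, the 29 genes whose value came from the same quantity in all tumours gave 26 above 0 and a median of 0.20. Counts of called start sites and exons stayed at 0. The median of all loci was 0.002 with median-of-ratios scaling and 0.010 with quantile normalization, against 0.019. Signs of single genes turned as follows. With summed start sites CDC25C had -0.30 and CENPE -0.69, and with array weights CCNB1 had -0.059 and ECT2 0.060. CENPA, at 0.004, had -0.014 with median-of-ratios scaling, -0.043 with quantile normalization, -0.067 with the largest event, -0.098 with array weights and -0.20 from its nearer start, which was chosen after seeing the data. With 1 tumour left out the ranges were -0.333 to 0.185 for CENPA, -0.107 to 0.316 for CCNB1, -0.048 to 0.367 for CKS1B, -0.438 to 0.114 for MKI67, -0.183 to 0.073 for NEK2, -0.142 to 0.223 for CDC25B, -0.121 to 0.138 for CENPF, -0.351 to 0.151 for ECT2, -0.128 to 0.469 for HMMR and -0.061 to 0.269 for TOP2A. The cause was not tested. The groups share replicate numbers 1 to 3. Same-numbered tumours did not deviate together (correlations of -0.032, 0.020 and -0.061), and those of different number gave -0.063 to 0.105. With 3 tumours per group such values cannot decide whether the numbers pair the tumours. With a replicate block 35 genes again lay above 0 with a median of 0.18, 0 passed (limma, lowest adjusted p = 0.941), and 0 start sites or exons did. Unknown depth and 3 tumours per group limit the precision.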

Other observations

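The identifier of MKI67 was also carried by a locus on the opposite strand (chromosome 10, 129902907 to 129903525, plus strand). It was listed in ZLD1039 tumour 3 only, at 0.643 FPKM, and was left out of the value of MKI67.

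In the CENPA locus, an exon of 172 bases (26997912 to 26998083), which lies between the far upstream starts and the nearer start, was included at 64.5, 74.4 and 53.3% in the vehicle tumours and at 99.6, 100.0 and 98.7% in the ZLD1039 tumours. The groups did not overlap. The difference of 35.4 percentage points (95% interval 15.6 to 55.2) did not pass adjustment over the 13274 exons and introns tested (limma, adjusted p = 0.719), and the files do not say to which gene the exon belongs.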
